A study of Mus musculus with 8 samples.

Results

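Genes that repair DNA breaks, crosslinks, mismatches and damaged bases were followed in mouse ventral midbrain with and without 1 mutant allele of Ercc1. The set was a fixed list of 32 genes, chosen by name and sorted by repair pathway, and all 32 were found among the 15359 genes of the deposited count table and among the 15074 that were tested. It holds 5 genes of homologous recombination, 6 of damage signalling, 6 of end joining, 3 of the Fanconi crosslink pathway, 2 of mismatch repair, 7 of base excision and single-strand break repair and 3 that clean blocked DNA ends.

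RNA was sequenced from 4 Ercc1 delta/+ and 4 wild type samples of the ventral mesencephalic area, the region that holds the dopaminergic neurons. Ercc1 delta/+ mice carry 1 delta allele and 1 wild type allele of Ercc1, and both groups share the FVB:C57BL/6J mixed background. The sources used here give neither age nor sex. Nor is it stated whether the 8 samples came from 8 animals. The p-values set each group difference against the spread among these samples, and some of that spread may be technical. Whether they extend to other animals is therefore unknown.

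Cells mend DNA by several routes. Breaks through both strands are either copied from the sister chromatid by homologous recombination, which needs a replicated chromosome, or rejoined directly by end joining, the route open to neurons that no longer divide. Damaged single bases are cut out and filled in by base excision repair, mispaired bases by mismatch repair, and covalent crosslinks between strands by the Fanconi proteins together with nucleases such as Ercc1-Xpf, of which Ercc1 is a subunit.

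Library totals ran from 18303913 to 31261889 counts. Values below are counts scaled by library size (CPM) with TMM factors, and differences are log2 fold changes of Ercc1 delta/+ against wild type. Ercc1 (NM_007948) stood at 11.5 ± 1.17 CPM (SD, n = 4) in mutants and 14.5 ± 0.723 CPM (SD, n = 4) in wild type, and the groups did not overlap (log2 fold change -0.34, SE 0.10, adjusted p = 0.113 by the edgeR quasi-likelihood test). Of 7 dopaminergic neuron markers, all were detected, with summed levels of 167 to 333 CPM in mutant and 230 to 375 CPM in wild type libraries. Their median log2 fold change was -0.11, and 2 of the 7 were positive. Of the choroid plexus markers, 10 of 10 had a positive log2 fold change, and their sums were 391 to 2050 CPM in mutant and 316 to 569 CPM in wild type libraries. All 6 cortical neuron markers were also positive (249 to 802 CPM against 102 to 504 CPM). Of the endothelium markers 5 of 7 were positive, and of the microglia markers 4 of 10. Positive values were fewer for astrocytes (2 of 7), oligodendrocytes (1 of 7) and blood (0 of 2 tested). None of these markers passed the test, and the part of any of these tissues or cell types in the repair gene values was not tested. In bulk tissue, fewer cells of a type and less RNA per cell cannot be told apart.

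No repair gene of the set passed the test. Of 32 members, 0 had an adjusted p below 0.05 by the edgeR quasi-likelihood test with Benjamini-Hochberg adjustment over all genes, where 0.0464% of all genes tested passed. The lowest adjusted p was 0.102, for Parp1. At an unadjusted p below 0.05 there were 6 members, 3 higher (Parp1, Msh6 and Fanca) and 3 lower (Xrcc4, Fancc and Polb), beside 18.7% of all genes tested (9.08% higher and 9.65% lower). The groups did not overlap for 3 members (9.38%), Parp1 and Msh6 above wild type and Fancc below it, while 12.1% of all genes tested did not overlap (5.17% higher and 6.88% lower). Both counts lie near the background. DESeq2 called 1 member, Parp1 (adjusted p = 0.0106), beside 7.57% of the 13901 genes to which it gave an adjusted p. Chek1 got no adjusted p from DESeq2. The edgeR exact test and limma-voom called 0 members, and the share of all genes that they called is not given here. The authors' deposited table gave no member an adjusted p below 0.05, beside 1.86% of all rows, and the lowest there was 0.298 for Xrcc4.

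Log2 fold changes of the members ran from -0.45 (Xrcc4) to 0.36 (Fanca). Of the 32, 20 (62.5%) were negative, with a median of -0.08, where 50.5% of all genes were negative and their median was -0.0028. The 95% intervals, unadjusted, bound how large a difference could have gone unseen. For all 32 members the interval lay within a 2-fold change either way, as it did for 89.7% of all genes tested. For 23 members it lay within 1.5-fold, beside 69.0% of all genes. The other 9 were Brca2, Chek1, Chek2, Xrcc4, Nhej1, Fanca, Fancd2, Mutyh and Neil1. Their intervals reached past 1.5-fold on 1 side, so a change of that size lies within what these samples allow.

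**Figure D1:**
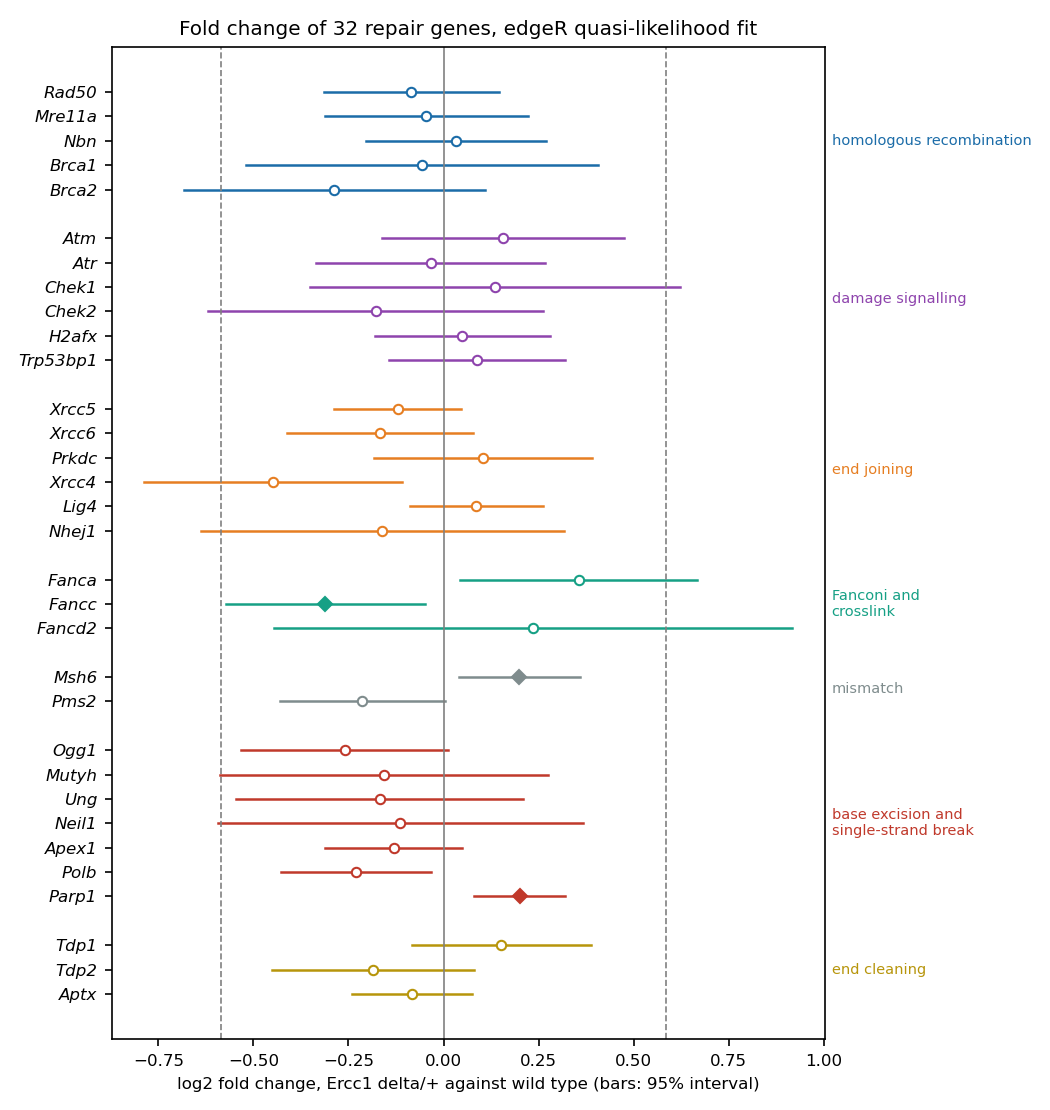
Log2 fold change of each of the 32 repair genes (x axis, log2 units) with its 95% interval, sorted by pathway; filled diamonds mark genes whose 4 mutant and 4 wild type values do not overlap, and dashed lines mark a 1.5-fold change. The 3 diamonds are Fancc at -0.31, Msh6 at 0.20 and Parp1 at 0.20, and no interval reaches a 2-fold change.

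Sequences are shown for the promoters of the 3 genes whose groups did not overlap, since these are the members that stand furthest apart by that measure. Each window runs from 250 bases before to 50 bases after the start of the transcript (RefSeq, GRCm38.p6, read on the gene's own strand), and capitals mark the GC box GGGCGG and the CCAAT box CCAAT on either strand. The windows are chr1:180568641-180568940 on the plus strand for Parp1, chr17:87974800-87975099 on the plus strand for Msh6 and chr13:63431696-63431995 on the minus strand for Fancc.
Parp1: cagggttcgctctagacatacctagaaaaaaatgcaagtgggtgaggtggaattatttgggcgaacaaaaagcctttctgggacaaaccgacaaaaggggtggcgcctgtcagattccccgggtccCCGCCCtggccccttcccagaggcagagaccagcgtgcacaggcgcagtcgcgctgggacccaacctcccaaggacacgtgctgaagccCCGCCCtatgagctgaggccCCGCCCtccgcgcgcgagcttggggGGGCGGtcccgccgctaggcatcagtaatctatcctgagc
Msh6: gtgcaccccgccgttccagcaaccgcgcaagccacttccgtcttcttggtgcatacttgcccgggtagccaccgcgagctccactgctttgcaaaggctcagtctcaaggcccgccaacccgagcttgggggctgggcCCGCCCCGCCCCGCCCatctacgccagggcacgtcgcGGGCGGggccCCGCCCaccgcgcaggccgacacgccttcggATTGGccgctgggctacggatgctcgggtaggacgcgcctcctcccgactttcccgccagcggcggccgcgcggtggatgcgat
Fancc: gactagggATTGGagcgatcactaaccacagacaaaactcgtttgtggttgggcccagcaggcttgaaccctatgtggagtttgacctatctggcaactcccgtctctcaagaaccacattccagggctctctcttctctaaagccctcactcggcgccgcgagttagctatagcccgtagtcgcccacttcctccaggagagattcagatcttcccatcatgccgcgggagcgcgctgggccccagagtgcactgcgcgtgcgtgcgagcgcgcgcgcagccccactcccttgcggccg
The letters of Parp1 hold 4 GC boxes and those of Msh6 5 GC boxes and 1 CCAAT box, while Fancc holds 0 GC boxes and 1 CCAAT box. The table of promoters matched 25 members. A GC box was found in 18 of the 25 (72.0%) and in 66.2% of the tested genes with a window, a CCAAT box in 14 (56.0%) and 42.7%, and the TATA box TATAAA in 3 of the 25 and in 9.36%. Over all windows of the table, tested or not, the shares were 35.7%, 37.4% and 13.6%. Of E2F sites only the forms TTTCGCGC and TTTGGCGC were searched. Either was in 0 of the 25, in 1.69% of the tested genes and in 0.813% of all windows. Other forms of the E2F site were not searched, so the count does not show that these promoters lack one. The palindromic NRF1 motif was in 2 of the 25 (8.0%), Lig4 and Tdp1, in 2.08% of the tested genes and in 0.971% of all windows.

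The most abundant members per transcript length belonged to base excision repair and to the marking of breaks. Polb, the polymerase that fills the gap of an excised base, led in wild type with 27.3 ± 1.82 CPM per kilobase (SD, n = 4). Apex1, the endonuclease that cuts at sites without a base, followed with 24.5 ± 1.23 CPM per kilobase as counted. That level and its place in the order are uncertain, since most of its transcript lies opposite exons of Pip4p1. Trp53bp1, a scaffold at breaks that favours end joining, had 21.6 ± 2.77, H2afx, the histone variant phosphorylated around breaks, 18.7 ± 2.28, and Parp1, which marks broken strands with poly(ADP-ribose), 17.5 ± 0.461 CPM per kilobase. Within these 5, each gene overlapped the next in the order by mean ± SD. The sixth gene, Xrcc5, stood clear of them at 8.89 ± 0.371 CPM per kilobase. The lowest levels were those of the Fanconi target Fancd2 (0.263 ± 0.0702 CPM per kilobase), the recombination gene Brca1 (0.334 ± 0.0780) and the checkpoint kinase gene Chek1 (0.352 ± 0.0738), whose mean ± SD overlapped. Chek2 (0.835 ± 0.120) and Brca2 (0.843 ± 0.203) came next and overlapped each other. Of 14 markers of cycling cells, 10 passed the filter on low counts, and their summed level was 27.2 to 32.8 CPM in mutants, beside 27.6 to 32.4 CPM in wild type.

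**Figure D2:**
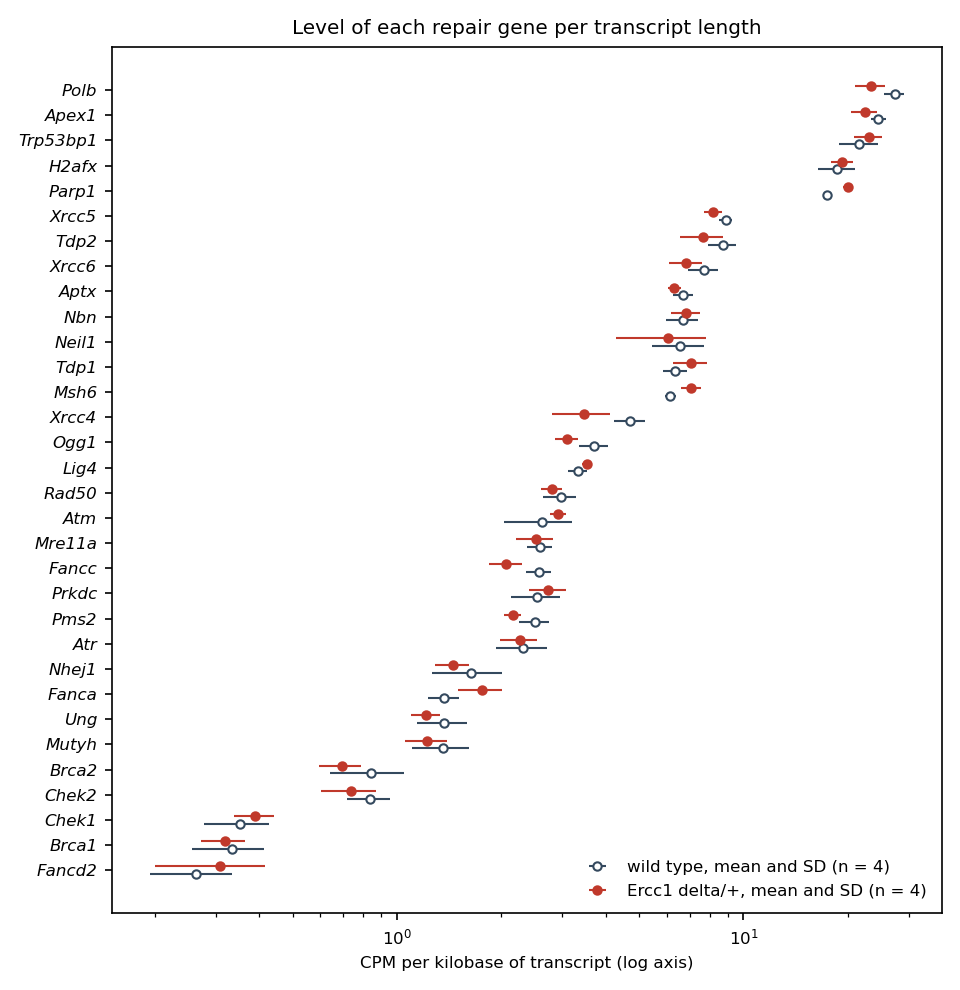
Mean level of each repair gene with its SD (CPM per kilobase of transcript, log axis) in 4 wild type (open) and 4 Ercc1 delta/+ libraries (filled), ordered by the wild type level. The order runs from Fancd2 at 0.263 to Polb at 27.3 CPM per kilobase, and the mutant mean of Xrcc4, the lowest against its wild type mean, is 0.733 times it in the fitted comparison.

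In homologous recombination, none of the 5 members passed the test or had groups without overlap. Rad50, Mre11a and Nbn form the complex that first holds a broken end, and their log2 fold changes were -0.08 (SE 0.10), -0.05 (SE 0.12) and 0.03 (SE 0.10). Each 95% interval of the 3 stayed between -0.31 and 0.27. Brca1, which steers breaks towards recombination, stood at 2.00, 1.87, 2.53 and 1.96 CPM in mutant replicates 1 to 4 and at 2.20, 2.92, 1.81 and 1.86 CPM in wild type. The highest and the lowest of these 8 values both came from wild type libraries. Brca2, which loads the recombinase onto resected DNA, had 7.29, 6.56, 8.93 and 6.90 CPM in mutants, beside 7.78, 7.52, 8.64 and 12.2 CPM in wild type. Wild type replicate 4 stood apart above the other 7 libraries, and the log2 fold change of Brca2 was -0.29 (95% interval -0.68 to 0.11, adjusted p = 0.413). Without that library it was -0.10. Of 27 further genes listed for this pathway 24 were tested and 0 passed. At an unadjusted p below 0.05 there were 4, and 3 (12.5%) had groups without overlap, beside 18.7% and 12.1% of all genes tested. Of the 24, 22 (91.7%) were negative, with a median of -0.13, beside 50.5% of all genes tested. All come from the same libraries, so their signs are not independent. With an offset that removes trends over length and GC 19 were negative (median -0.12), and with a term for library depth, which is largely confounded with genotype, 17 (median -0.11). Brcc3, a deubiquitinase of the Brca1-A complex, had 23.6 ± 2.50 CPM in mutant and 29.7 ± 1.83 CPM in wild type libraries (SD, n = 4 each), without overlap (log2 fold change -0.33, SE 0.09, adjusted p = 0.107), and DESeq2 called it (adjusted p = 0.0351). Xrcc2, a paralog of the recombinase, stood at -0.35 on the log2 scale (SE 0.12, adjusted p = 0.179).

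The 6 damage signalling genes had log2 fold changes between -0.18 and 0.16, and all of their groups overlapped. Atm, the kinase that answers breaks, stood at 30.6, 26.7, 28.7 and 28.3 CPM in mutants and at 23.0, 20.2, 25.8 and 33.4 CPM in wild type. The mutant values lay close together, while wild type replicate 4 lay above all of them and the other wild type libraries below all of them. Its log2 fold change was 0.16 (SE 0.14, adjusted p = 0.584), and 0.31 without wild type replicate 4 (adjusted p = 0.155). Atr, the kinase that answers stalled forks, had a value of -0.03 (SE 0.13), which was 0.08 without that library. Chek1 and Chek2, the kinases they activate, had values of 0.14 (SE 0.22) and -0.18 (SE 0.20). With 1 library left out, Chek1 ran from 0.0403 (without mutant replicate 1) to 0.28 (without wild type replicate 4), and Chek2 from -0.28 (without mutant replicate 3) to -0.0735 (without wild type replicate 4). With between 21 and 75 counts per library, both intervals reach past 1.5-fold. H2afx (0.05, SE 0.10) and Trp53bp1 (0.09, SE 0.10) were measured at between 479 and 7970 counts per library, and their intervals stayed within 1.5-fold. Trp53bp1 shares 2130 exonic bases with Tubgcp4 on the opposite strand, over which Tubgcp4's level would amount to 19.1 CPM of the 208 CPM of Trp53bp1 in wild type. Of 15 further signalling genes 14 were tested and 0 passed, with 9 negative and a median of -0.04. Timeless and Tipin, whose proteins bind each other at the replication fork, were the members of this list with the smallest p. Timeless had 4.74 ± 0.304 CPM against 5.69 ± 0.280 CPM (SD, n = 4 each) without overlap (log2 fold change -0.26, SE 0.11, adjusted p = 0.240), and Tipin stood at -0.65 on the log2 scale (SE 0.24, adjusted p = 0.195). Groups without overlap were found for 2 of these 14 genes (14.3%), beside 12.1% of all genes tested.

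End joining held the lowest fold change of the set. Xrcc4 encodes the scaffold that carries DNA ligase IV to the break. It stood at 5.38, 6.73, 4.77 and 4.43 CPM in mutant replicates 1 to 4 and at 7.01, 8.31, 7.07 and 6.63 CPM in wild type. Mutant replicate 2 lay just above wild type replicate 4, and the other 3 mutants lay below all wild type libraries. The log2 fold change was -0.45 (SE 0.15, 95% interval -0.79 to -0.11), or 0.733 times wild type, and its adjusted p of 0.164 missed the threshold. Without mutant replicate 2 the value was -0.57 (adjusted p = 0.0664). With the offset for length and GC, it was -0.22 (adjusted p = 0.590). Spread evenly over its transcript, Tmem167 on the opposite strand would place on the 112 exonic bases it shares with Xrcc4 0.668 CPM in wild type and 0.609 CPM in mutants. Its partner Lig4, the ligase itself, had 17.9, 17.8, 17.02 and 18.3 CPM in mutants against 17.8, 16.6, 17.2 and 15.2 CPM in wild type. For Lig4 the log2 fold change was 0.09 (95% interval -0.09 to 0.26), so the ligase and its scaffold had opposite signs. Nhej1, which aligns ends beside them, had a value of -0.16 (SE 0.21).

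The Ku heterodimer, which caps broken ends, is encoded by Xrcc5 and Xrcc6, with log2 fold changes of -0.12 (SE 0.07) and -0.17 (SE 0.11). Prkdc, the catalytic subunit that Ku recruits, had a value of 0.10 (SE 0.13), which was -0.01 with the length and GC offset. Per kilobase, Xrcc6 lay at 0.780 to 0.916 times Xrcc5 within mutant libraries and at 0.762 to 0.910 times within wild type libraries. The ranges of the Ku ratio overlapped. Of 7 further end joining genes 6 were tested and 0 passed, with 3 negative and a median of -0.02 (0.03 with the depth term). The smallest p belonged to Paxx (-0.14, SE 0.11) and Polm (-0.16, SE 0.15), an accessory factor and a gap-filling polymerase.

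The 3 Fanconi genes did not share a direction. Fancc, a subunit of the core complex that ubiquitinates its target at a crosslink, stood at 6.03, 6.62, 7.34 and 5.76 CPM in mutants and at 7.67, 7.76, 8.96 and 7.58 CPM in wild type. Every mutant library lay below every wild type library. The log2 fold change was -0.31 (SE 0.12, 95% interval -0.57 to -0.05, adjusted p = 0.202). A second deposited row of Fancc, for another transcript with 73.6% of the counts, was read from the edgeR fit of every transcript row. There it had a value of -0.41 (SE 0.15, adjusted p = 0.192), and the row used above had -0.32 (adjusted p = 0.189). Reads on common exons may have been counted for both, so these rows may not be independent. Fanca, another core subunit, stood at 6.22, 8.14, 8.20 and 8.91 CPM in mutants and at 6.63, 5.19, 6.404 and 6.33 CPM in wild type. Mutant replicate 1 lay below 3 of the wild type libraries, and the other 3 mutants lay above all of them. Its log2 fold change was 0.36 (SE 0.14, adjusted p = 0.217).

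Fanca shares 552 exonic bases with Zfp276, a zinc finger gene on the opposite strand that had 28.7 ± 2.00 CPM in wild type against 39.9 ± 5.29 CPM in the mutant libraries (SD, n = 4 each), without overlap (log2 fold change 0.48, SE 0.10, adjusted p = 0.0680). Spread evenly over its transcript, Zfp276 would place 5.41 CPM on these bases in mutants and 3.89 CPM in wild type, where Fanca as counted had 7.87 and 6.14 CPM. Without strand, reads of both genes on these bases cannot be told apart, and the part of Zfp276 in the value of Fanca was not tested. Fancd2, the target of the core complex, had the lowest level of the set per kilobase of transcript, though not in CPM. It stood at 1.76, 0.905, 2.35 and 1.78 CPM in mutants, beside 1.04, 1.29, 1.53 and 1.95 CPM in wild type. Mutant replicates held both the lowest and the highest of these values, and the 95% interval of its log2 fold change ran from -0.45 to 0.92. Of 19 further crosslink repair genes 19 were tested and 0 passed, with 13 negative and a median of -0.03. With the depth term 7 were negative and the median was 0.03. Fancl, the ubiquitin ligase of the core complex (-0.35, SE 0.16), and Mad2l2, a subunit of a translesion polymerase (-0.18, SE 0.12), had the smallest p.

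In mismatch repair the 2 members had opposite signs. Msh6, which recognises mispaired bases, stood at 28.5, 32.8, 28.5 and 30.5 CPM in mutants and at 26.2, 26.1, 25.1 and 27.3 CPM in wild type. All mutants lay above all wild type libraries. The log2 fold change was 0.20 (SE 0.07, 95% interval 0.04 to 0.36), or 1.15 times wild type, with an adjusted p of 0.185. It shares 34 exonic bases with Fbxo11 on the opposite strand, which had a log2 fold change of 0.01. Pms2, part of the endonuclease that nicks the strand to be replaced, stood at 11.97, 11.1, 12.6 and 11.6 CPM in mutants and at 12.2, 13.1, 14.2 and 15.3 CPM in wild type. Mutant replicate 3 alone lay inside the wild type range, and the log2 fold change was -0.21 (SE 0.10, adjusted p = 0.273). On its own strand, Pms2 shares 363 exonic bases (6.6% of its transcript) with Gm42421 and 85 with Rsph10b. The part of these genes in the value of Pms2 was not tested. Per kilobase, Msh6 was 2.90 to 3.82 times Pms2 in mutant and 2.28 to 2.76 times in wild type libraries, so this ratio, 1 of 4 computed and singled out after its values were seen, did not overlap between groups. Of 12 further mismatch repair genes 12 were tested and 0 passed, with 9 negative and a median of -0.08. The clamp loader genes Rfc4 (-0.40, SE 0.18) and Rfc3 (-0.30, SE 0.14) had the smallest p.

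Base excision repair held the smallest p of the set. Parp1 stood at 78.3, 80.5, 74.4 and 77.9 CPM in mutant replicates 1 to 4 and at 69.4, 67.7, 68.6 and 65.3 CPM in wild type. All 4 mutants lay above all 4 wild type libraries, and the spread within each group was small. The log2 fold change was 0.20 (SE 0.05, 95% interval 0.08 to 0.32), or 1.15 times wild type, and the adjusted p of 0.102 missed the threshold. Over the alternatives its log2 fold change stayed between 0.14 and 0.22, with adjusted p-values from 0.0106 (DESeq2) to 0.329.

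Polb stood at 25.2, 31.6, 28.3 and 26.7 CPM in mutants and at 33.0, 35.4, 32.8 and 30.0 CPM in wild type. Mutant replicate 2 reached into the wild type range, and the others lay below it. Its log2 fold change was -0.23 (SE 0.09, adjusted p = 0.206), and with the length and GC offset it was -0.02 (adjusted p = 0.932). Apex1 stood at 29.2, 24.7, 30.0 and 27.0 CPM in mutants and at 29.6, 30.6, 28.9 and 32.4 CPM in wild type, with overlap (log2 fold change -0.13, SE 0.08). Its value was 0.02 with the offset. Of the Apex1 transcript 70.8% (877 bases) lies in exons of Pip4p1 on the opposite strand, whose level over these bases would be 29.0 CPM in wild type, beside 30.4 CPM for Apex1 as counted. With strand use in counting unknown, the values of Apex1 are uncertain.

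The 4 members that encode glycosylases, the enzymes that start base excision, all had overlapping groups. Ogg1 removes oxidised guanine and had 4.27, 5.03, 5.02 and 4.84 CPM in mutants against 4.97, 6.13, 5.78 and 6.09 CPM in wild type (log2 fold change -0.26, SE 0.12, adjusted p = 0.290). Wild type replicate 1 was the lowest of its group and lay among the mutants. Ogg1 shares 65 bases with Camk1 on the opposite strand, which would hold 2.67 CPM in wild type and 2.47 CPM in mutants. Mutyh, which removes adenine opposite oxidised guanine, had a value of -0.16 (SE 0.19), and Ung, which removes uracil, -0.17 (SE 0.17). Neil1, which acts on oxidised pyrimidines, had -0.11 (SE 0.21, and 0.02 without mutant replicate 2), with mutant values from 4.98 to 9.36 CPM around a wild type range of 6.18 to 8.91 CPM. With the depth term Mutyh was at 0.0087 and Neil1 at 0.12. Of 16 further genes 15 were tested and 0 passed, with 7 negative and a median of 0.03. Mpg, the glycosylase for alkylated bases, had 14.4 ± 0.876 CPM against 17.03 ± 1.21 CPM (SD, n = 4 each) without overlap (log2 fold change -0.24, SE 0.09, adjusted p = 0.185). Parp2, the closest relative of Parp1, also did not overlap but in the lower direction (-0.14, SE 0.08, adjusted p = 0.385). In this list 2 of the 15 (13.3%) had groups without overlap, beside 12.1% of all genes tested.

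The 3 genes that free blocked ends had overlapping groups. Tdp1, which strips stalled topoisomerase I, had 13.3, 16.8, 13.7 and 13.8 CPM in mutants, beside 13.6, 13.4, 11.4 and 13.4 CPM in wild type. Mutant replicate 2 was high and wild type replicate 3 low, and the other 6 libraries lay between 13.3 and 13.8 CPM. For Tdp1 the log2 fold change was 0.15 (SE 0.10). Tdp2, which strips topoisomerase II, had a value of -0.19 (SE 0.12). Aptx, which removes AMP left by a failed ligation, had -0.08 (SE 0.07), with an interval of -0.24 to 0.07.

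**Figure D3:**
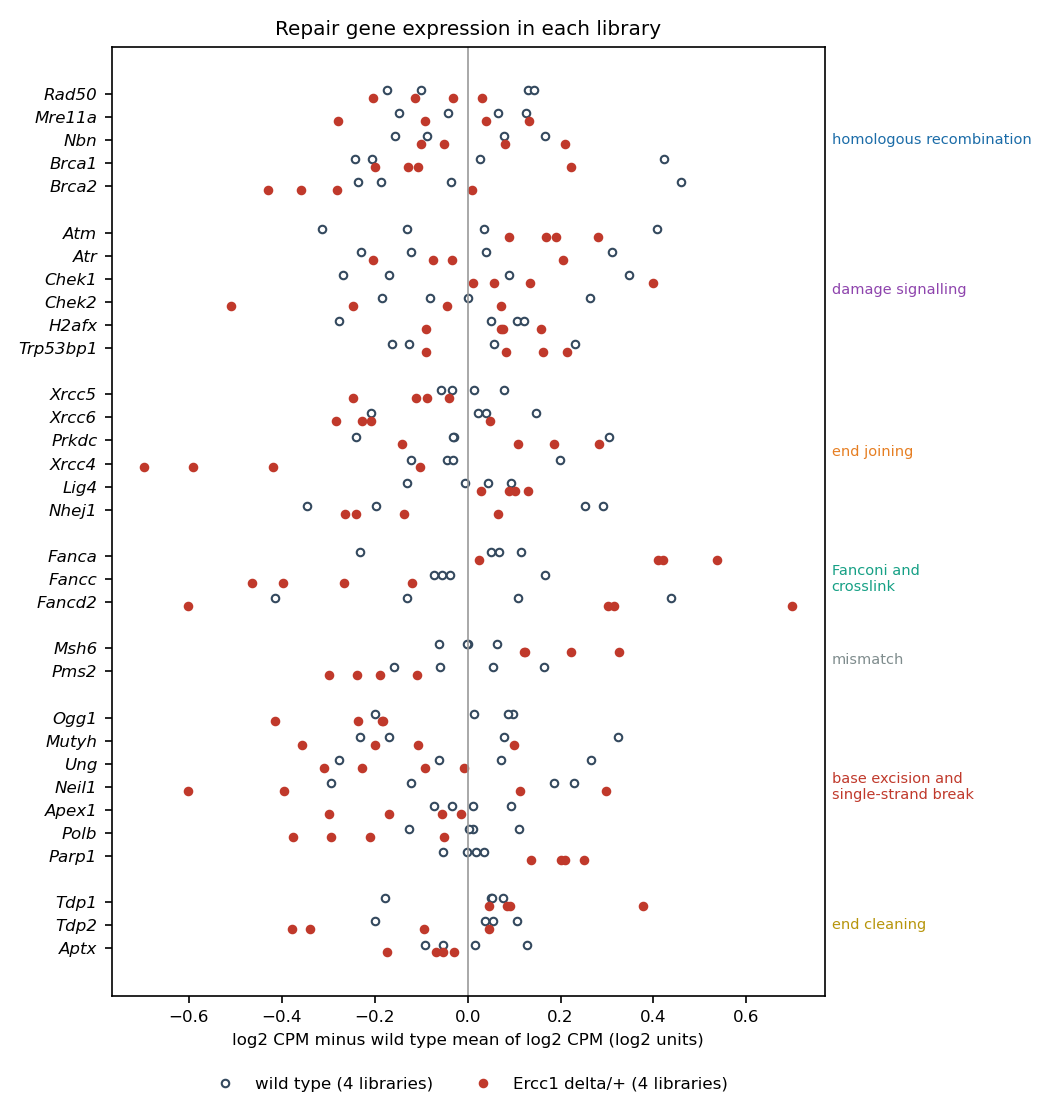
Expression of each repair gene in every library as log2 CPM minus the wild type mean (x axis, log2 units), with 4 wild type (open) and 4 Ercc1 delta/+ libraries (filled). Filled points stand clear of open ones for Parp1, Msh6 and Fancc, and overlap with them in the other 29 genes.

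The libraries differed among themselves in these genes regardless of genotype. Wild type replicate 4 held the highest wild type value for 16 of 32 members, and mutant replicate 3 the highest mutant value for 17, while the lowest values fell most often to mutant replicate 2 (13) and wild type replicate 2 (11). For the 5 members with transcripts over 8000 bases (Brca2, Atm, Atr, Trp53bp1 and Prkdc), wild type replicate 4 was the highest wild type library in all 5. Such counts were taken over the members only, and whether other genes share this pattern was not tested. These 2 libraries of high values, wild type replicate 4 and mutant replicate 3, also had the largest totals of their groups. With a term for depth the median of the members was -0.04. That term marks the 4 libraries of lowest total, mutant replicates 1, 2 and 4 and wild type replicate 2, so depth and genotype are largely confounded in this fit.

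Transcript length went with the direction of the fold change. The median transcript of all genes tested was 3006 bases. Of 15 members with a shorter transcript 12 were negative (median -0.16), where 65.0% of all such genes were negative. Among the 17 longer members 8 were negative (median 0.09), where 36.0% of all such genes were. Over the 32 members, which come from the same libraries, the log2 fold change and length had a Spearman coefficient of 0.423, and over 14711 genes it was 0.395. With the offset the medians of the shorter and longer members were -0.03 and -0.01. Against this trend, the 8 longer members with negative values were Rad50, Mre11a, Brca1, Brca2, Atr, Fancc, Pms2 and Aptx. H2afx, Nbn and Tdp1 have shorter transcripts and positive values.

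**Figure D4:**
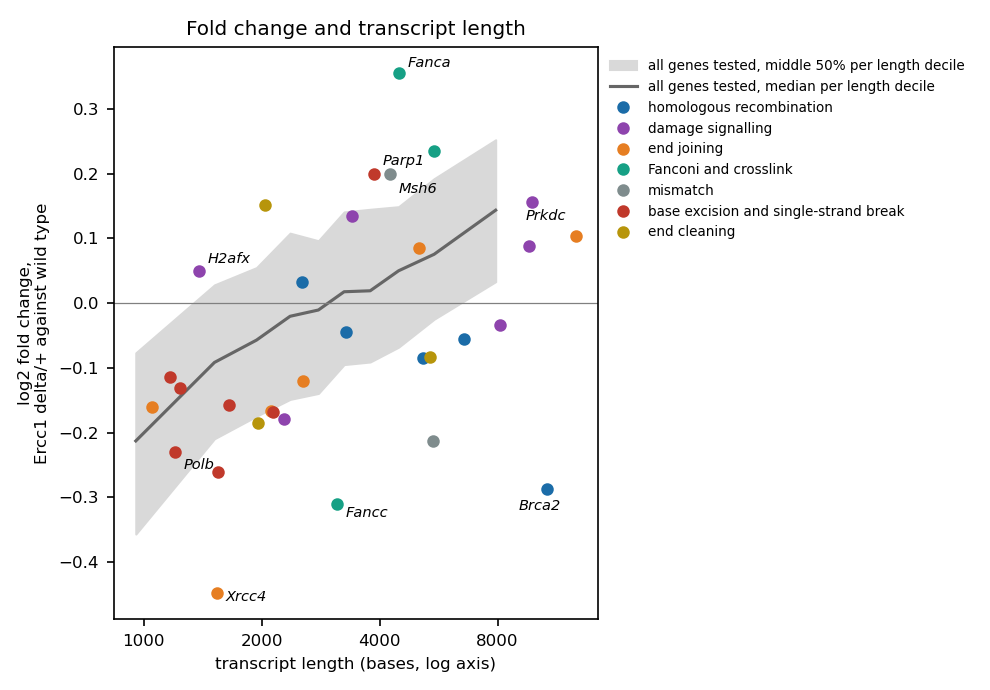
Log2 fold change (y axis, log2 units) against transcript length (x axis, bases, log scale) for the 32 repair genes by pathway, over the median and middle 50% of all genes tested in 10 length classes. The median of all genes runs from -0.21 in the shortest to 0.14 in the longest class, and the repair genes lie on both sides of it.

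Of 90 further repair genes tested in the same pathways, 0 passed the edgeR quasi-likelihood test, 7 had an unadjusted p below 0.05 and 63 (70.0%) were negative, with a median of -0.06, beside 50.5% of all genes. With the depth term 51 were negative (median -0.03). All 7 were lower in Ercc1 delta/+, beside 9.65% of all genes tested that were lower at this p. They were 4 of homologous recombination, 2 of damage signalling and 1 of base excision repair, and 0 of the other 3 lists. DESeq2 called 1 of the 90, Brcc3, beside 7.57% of the 13901 genes to which it gave an adjusted p. Groups without overlap were found for 7 of the 90 (7.78%), all in the lower direction, beside 12.1% of all genes tested (6.88% lower).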

How the data were processed

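Poly(A) RNA of 4 Ercc1 delta/+ and 4 wild type samples was sequenced in 1 lane. Per the submitters' processing notes, TopHat 1.3.1 and edgeR were used with mm9. No source used here names the counting tool or says whether strand was used. The authors deposited whole-number counts for 19931 RefSeq transcript rows, with their own log2 fold changes, p-values and adjusted p-values. The deposited rows of Brca2 held equal counts in 7 of 8 libraries, so reads on common exons had been counted for each row.

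Rows were named through RefSeq (GRCm38.p6) and GENCODE M21 tables (19456 matched). Each gene was read from its row of highest total, after merging 152 whose counts were the same as another's. Transcript lengths, exon overlaps and promoters come from these references, not mm9. The main test was the edgeR 4.0.16 quasi-likelihood test (R 4.3.3, TMM, filterByExpr, two-sided, Benjamini-Hochberg over 15074 genes, threshold 0.05). SEs are the estimate over the root of F, and intervals use the fitted degrees of freedom. Alternatives were other scalings and filters, the exact test, DESeq2 1.42.0, limma-voom 3.58.1, robust=TRUE, a replicate block, leaving out each library, every transcript row, a length and GC offset (lowess span 0.3, genes with mean log2 CPM above 2) and a model term marking the 4 shallowest libraries (3 mutant and 1 wild type, so largely confounded with genotype). Tests were tried on simulated data.

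Members and lists were chosen with earlier results of these data known. All members are described. Values per sample are given for members without overlap, with an unadjusted p below 0.05, or highest or lowest per length, and for others where they help. Of each further list, the 2 genes of smallest p are named. At these depths 3 counts correspond to 0.0960 to 0.164 CPM, counting error only.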

Additional observations from a re-analysis of the deposited data

Results flagged for a closer look

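In 64 groups of 4 libraries (32 genes in each genotype), 3 held a value set apart from the other 3 by more than Dixon's 95% critical value for 4 samples allows, where chance gives about 1 in 20 groups. Tdp1 accounted for a pair of them: Ercc1 delta/+ replicate 2 at 16.8 CPM was the highest of its group, and wild type replicate 3 at 11.4 CPM the lowest of its group. The third was Fancc in wild type replicate 3, at 8.96 CPM the highest of its group, on the side away from the mutants.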

How the results depend on the processing

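Under 20 other settings, 640 gene values were recomputed: 622 kept their direction and their side of the threshold, 1 passed it (Parp1 with DESeq2, log2 fold change 0.21, adjusted p = 0.0106) and 17 changed sign. Chek1 got no adjusted p from DESeq2, and that value is counted among the 622 by its direction alone. The count of members past the threshold was 0 in every setting except DESeq2, where it was 1, and for the 90 further repair genes it was likewise 1 with DESeq2 and 0 in the others. The median of the members stayed negative, from -0.14 (without Ercc1 delta/+ replicate 3) to -0.03 (length and GC offset), and was -0.08 with the replicate block, which left 0 members called. The labels do not say that replicate numbers pair samples, and the same-numbered deviations did not correlate together (-0.32, 0.19, -0.0016 and 0.31 for numbers 1 to 4). The count of members without overlap ran from 3 to 7 when 1 library was left out, a check added after seeing the data, while the share of all genes tested without overlap ran from 13.8% to 20.1%. It was 7 (21.9%, beside 18.0% of all genes) without Ercc1 delta/+ replicate 3 and 6 (18.8%, beside 18.5%) without wild type replicate 4. It was 5 (15.6%) without Ercc1 delta/+ replicate 1 or 2 or wild type replicate 1, beside 14.4%, 20.1% and 14.8%. Without wild type replicate 2 the count was 4 (12.5%, beside 18.7%). Without Ercc1 delta/+ replicate 4 or wild type replicate 3 the count was 3 (9.38%), beside 13.8% and 14.4%.

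The sign changed only for genes whose value above lay between -0.16 and 0.10. With the length and GC offset the values were -0.0573 for Trp53bp1, -0.0135 for Prkdc, 0.0179 for Nhej1 and 0.0153 for Apex1. With the depth term they were -0.0218 for Nbn, 0.12 for Atr, -0.0381 for H2afx, 0.0087 for Mutyh and 0.12 for Neil1. With 1 library left out in turn, the values ran from -0.108 to 0.0272 (without Ercc1 delta/+ replicate 4) for Mre11a, from -0.0272 (without Ercc1 delta/+ replicate 2; also negative without wild type replicate 3) to 0.0912 for Nbn, and from -0.166 to 0.104 (without wild type replicate 2) for Brca1. They ran from -0.119 to 0.082 (without wild type replicate 4; also positive without Ercc1 delta/+ replicate 2) for Atr, from -0.0365 (without wild type replicate 4) to 0.0956 for H2afx, and from -0.281 to 0.0184 (without Ercc1 delta/+ replicate 2) for Neil1. The cause was not tested. Depth limits the genes of few reads most: Fancd2 had between 16 and 65 counts per library.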
